A study of Mus musculus with 4 samples.

Results

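The nuclear genes for subunits of mitochondrial respiratory complexes I to IV were followed in peritoneal immune cells of mice on a chow diet (CD) and on a high-fat diet (HFD). Members were selected by gene symbol. The pattern takes the Nduf a, b, c, s and v series for complex I, the 4 Sdh genes for complex II, 8 Uqcr genes for complex III, and numbered Cox4 to Cox8 genes for complex IV. It matched 65 of 33670 symbols, and the 62 with at least 20 unique molecular identifiers (UMIs, the count of distinct captured transcripts) over both matrices were kept. They comprise 37 genes of complex I, 4 of complex II, 8 of complex III and 13 of complex IV. The other 3, Cox7b2, Cox8b and Cox8c, gave 0 UMIs in either matrix, which allows up to 0.0408 counts per 1000000 UMIs (CPM) in the CD and 0.0521 CPM in the HFD library. The rule uses names and total UMIs and no difference between diets, although it was written with earlier results of these data known.

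The respiratory chain passes electrons from NADH, through complex I, and from succinate, through complex II, by way of ubiquinone to complex III, and then by cytochrome c to complex IV, where oxygen is reduced. Complexes I, III and IV pump protons, and ATP synthase uses the gradient to make ATP. Most subunits are encoded in the nucleus and imported, while a small hydrophobic set, including catalytic proteins of complexes III and IV, is encoded by mitochondrial DNA. Resident macrophages and lymphocytes use this chain to differing extents, and macrophages change its use with activation.

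All cells came from wild-type mice that were placed on their diet at 4 weeks of age and kept on it for 3 months. Cells were washed from the peritoneal cavity and sorted for CD45, the surface protein of leukocytes. Each diet has 1 expression library and 1 library of B-cell receptor contigs. The labels do not say how many mice were used or pooled, and 1 of their notes describes high-fat feeding for both groups. Groups were therefore taken from the treatment entry of each expression sample and the titles of the receptor samples, which match the series design. With 1 library per diet there is no replicate, so no test between diets was made. The 95% intervals in brackets are exact intervals for a ratio of 2 counts, cover counting error only, and leave out any difference between mice or preparations.

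The deposited matrices hold 13227 barcodes and 73549582 UMIs for CD and 6897 barcodes and 57630074 UMIs for HFD, and 30 barcode sequences occur in both. Of the barcodes that passed a filter on genes detected and mitochondrial share, 2243 CD and 1526 HFD barcodes were macrophages, with at least 5 UMIs of Adgre1, Prg4, Alox15 and Garnl3. T cells, with at least 2 UMIs of the Cd3 genes, numbered 1117 and 820, and B cells, with a receptor contig, 7112 and 3677. Macrophages differed most in depth, with a median of 4966 UMIs in CD and 12275 in HFD, against 4033 and 5182 in T cells and 4628 and 5983 in B cells. Markers of these classes that the rules did not use mostly followed the labels. Cd2, on the T-cell marker list, did not, as it was higher in B cells than in T cells of both libraries. Lyz2, encoding lysozyme, stood at 41563 and 38039 CPM in macrophages, against at most 5314 CPM in the other classes. Lck, encoding a T-cell kinase, was at 324.5 and 462.5 CPM in T cells and at most 24.4 CPM elsewhere, and Cd79a, encoding a signalling part of the B-cell receptor, was at 3419 and 3586 CPM in B cells and at most 984.7 CPM elsewhere. Markers of NK, dendritic, mast, mesothelial and erythroid cells each summed to at most 45.1 CPM in any class of either library, and neutrophil markers to at most 65.3 CPM.

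The start of several member genes carries motifs of factors known to drive nuclear respiratory genes, and 4 such promoters are shown because they hold the same motif in genes whose diet ratios differed, a choice made after the ratios were seen. RefSeq promoter windows of 300 bases, from 250 before to 50 after the start, were found for 51 of the 62 members, in 53 windows. The motif of NRF1, nuclear respiratory factor 1, was searched as GCGCATGC on both strands and stood in 7 of the 53 windows, or 13.2%, against 2.71% of all 32851 windows. The motif of GABPA, also called nuclear respiratory factor 2, was searched as CCGGAAGT and stood in 4 windows, or 7.55%, against 3.89%. Those of YY1 (AAGATGGC) and ESRRA (CAAGGTCA) stood in 13.2% and 3.77% of member windows, against 2.75% and 1.56%. A match describes these letters only and no binding was measured. NRF1 matches lay before the start in 5 members, among which Cox6a1 had the highest and Ndufa6 the lowest macrophage ratio. GABPA matches lay before the start in 2 members, Uqcr11 and Uqcrh, whose ratios had opposite signs. The 250 bases before each start, in build GRCm38.p6 and on the minus strand, run 5′ to 3′ at chr5:115348959-115349208, chr15:82354292-82354541, chr10:80406822-80407071 and chr4:116075071-116075320, with the motif in capitals. In Cox6a1 the NRF1 motif is met on both strands, overlapping, from 162 bases before the start.
Cox6a1: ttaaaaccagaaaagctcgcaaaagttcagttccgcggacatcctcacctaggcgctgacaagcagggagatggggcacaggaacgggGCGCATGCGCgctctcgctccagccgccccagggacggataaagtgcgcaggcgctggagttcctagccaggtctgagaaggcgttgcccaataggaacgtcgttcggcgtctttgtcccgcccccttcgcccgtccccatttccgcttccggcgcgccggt
Ndufa6: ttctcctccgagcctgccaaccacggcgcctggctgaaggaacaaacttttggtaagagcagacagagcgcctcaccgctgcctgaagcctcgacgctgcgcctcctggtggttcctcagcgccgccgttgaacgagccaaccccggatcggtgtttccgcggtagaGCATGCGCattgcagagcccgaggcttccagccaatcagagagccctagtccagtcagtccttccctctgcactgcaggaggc
Uqcr11: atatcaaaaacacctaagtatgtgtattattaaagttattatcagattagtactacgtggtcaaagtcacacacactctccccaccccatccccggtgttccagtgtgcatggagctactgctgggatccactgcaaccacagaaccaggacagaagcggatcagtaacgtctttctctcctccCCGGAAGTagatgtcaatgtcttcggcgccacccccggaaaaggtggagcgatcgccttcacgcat
Uqcrh: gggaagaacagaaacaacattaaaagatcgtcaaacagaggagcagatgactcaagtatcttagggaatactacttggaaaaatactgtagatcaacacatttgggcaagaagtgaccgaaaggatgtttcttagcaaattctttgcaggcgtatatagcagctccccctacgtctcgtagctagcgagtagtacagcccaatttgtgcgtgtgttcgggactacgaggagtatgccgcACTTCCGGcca

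In macrophages the subunit genes were, as a group, higher in the HFD library. Their summed level was 13923 CPM in CD and 15976 CPM in HFD, or 14.7% higher, a log2 ratio of 0.20 (0.19 to 0.21). Of the 62 members, 59 passed the filter on low values (50 UMIs over both libraries and a mean of 20 CPM). Of these 59, 51 had a ratio above 0 and 8 below, with a median log2 ratio of 0.19. Over all 5249 genes that passed the filter in macrophages, 49.5% lay above 0. A gene was called higher when its HFD level was at least 25% above its CD level, and lower when its CD level was at least 25% above its HFD level. Of the members 12 were called higher, against 10.7% of all genes, and 0 were called lower, against 12.9% of all genes. Past a fold of 1.5 there were 2 higher members, against 3.09% of all genes. Most tested members thus lay above 0, and few passed a fold of 1.5. The share of a single macrophage's UMIs that came from members had a median of 1.36% in CD, with the middle 80% of barcodes between 1.02% and 1.83%. In HFD it had a median of 1.58%, between 1.20% and 1.99%, so the barcodes of the diets overlapped widely.

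**Figure D1:**
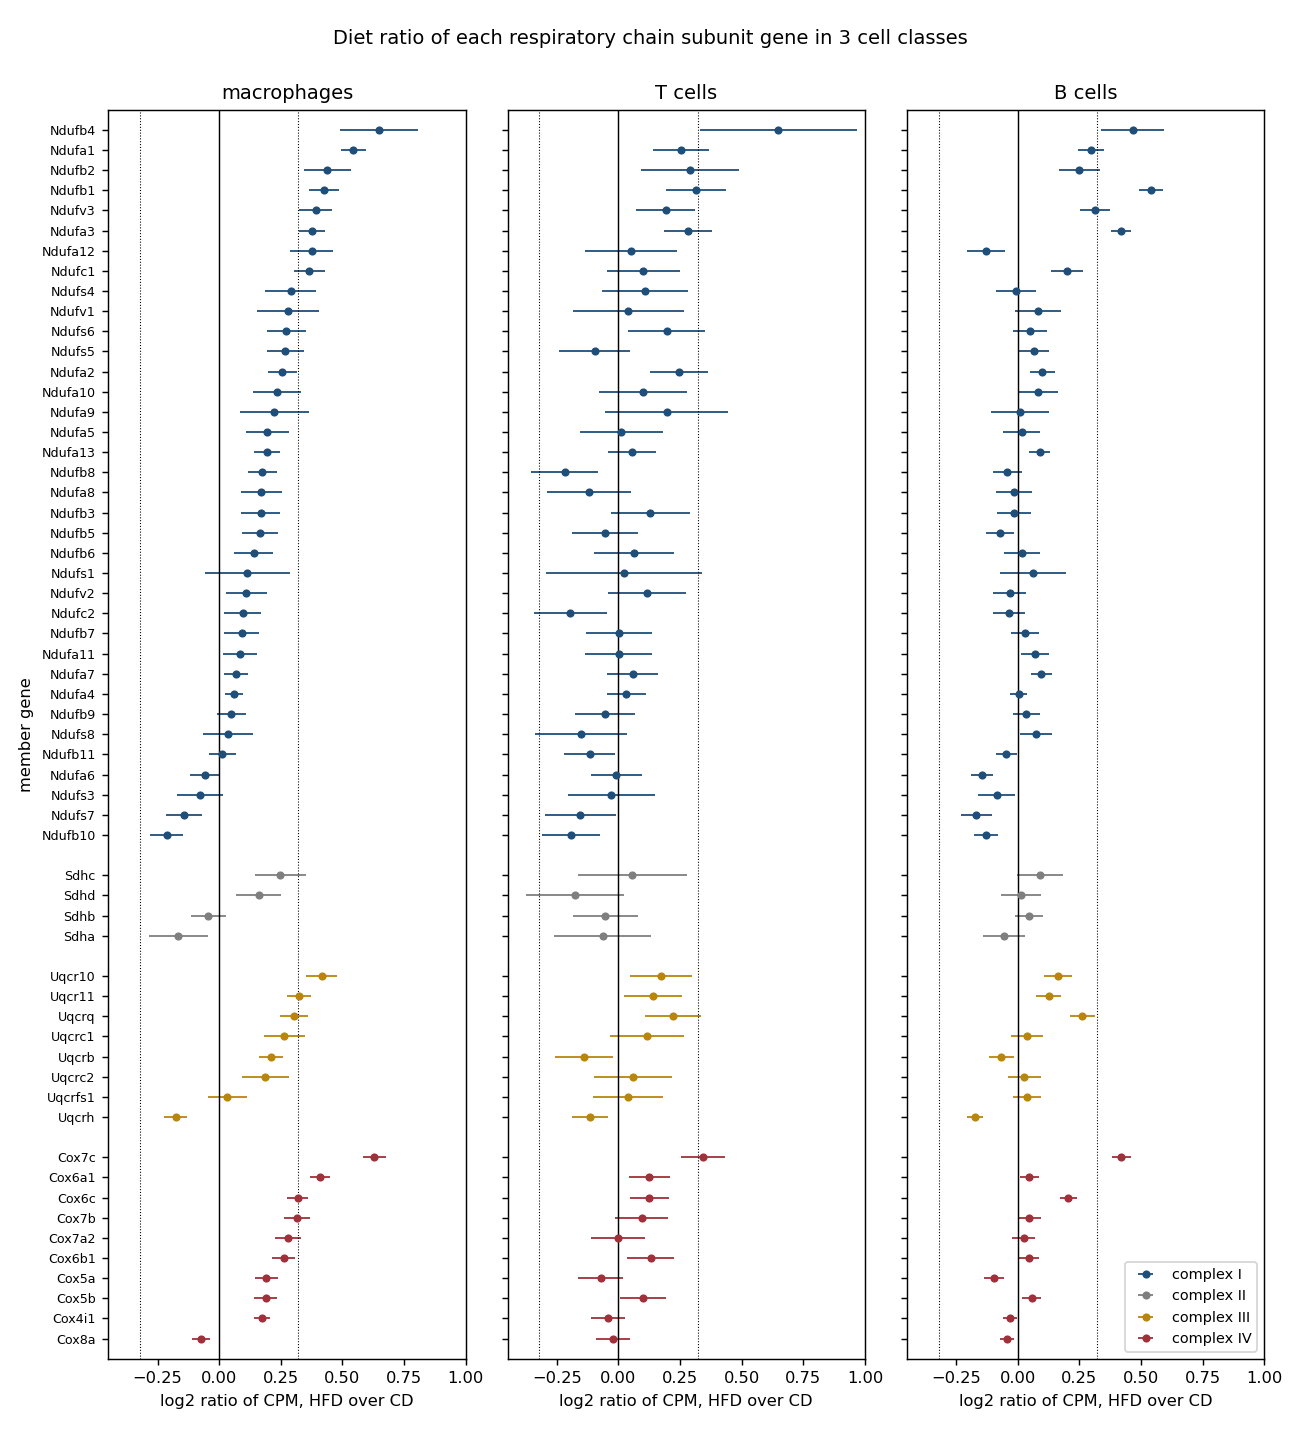
Log2 ratio of CPM, HFD over CD, of members that passed the filter (all but 1 of the 59), in macrophages, T cells and B cells. Points are ratios of 1 library per diet, bars are 95% counting intervals, colours mark the complex, and dotted lines mark the 25% threshold of the calls; most macrophage points lie right of 0, while T-cell and B-cell points scatter around it.

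In complex I, 33 of the 37 genes were above 0 in macrophages, and the summed level was 6763 CPM in CD and 7649 CPM in HFD, a log2 ratio of 0.18 (0.17 to 0.19). The modules of the complex differed from each other. The N module, which takes electrons from NADH, was at 967.2 CPM in CD and 1175 CPM in HFD (0.28, 0.25 to 0.31), with 8 of 8 genes above 0. The Q module, which hands the electrons to ubiquinone, was at 601.2 and 604 CPM (0.01, -0.03 to 0.05), with 3 of 5 genes above 0. The remaining 24 genes, mostly accessory proteins of the membrane arm, were at 5194 and 5871 CPM (0.18, 0.16 to 0.19).

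The 7 nuclear core subunits, among them the carriers of the flavin and of the iron-sulfur clusters, had a summed level of 699.9 CPM in CD and 710 CPM in HFD, a log2 ratio of 0.02 (-0.02 to 0.06). The other 30 genes, mostly accessory proteins around that core, and with them Ndufa4, which is known from complex IV, were at 6063 and 6939 CPM (0.19, 0.18 to 0.21). So the genes outside the core, more than the core genes, made up the higher complex I level. Among the core genes, Ndufv1, which binds the flavin that accepts electrons from NADH, was at 54.6 CPM in CD and 66.2 CPM in HFD (0.28, 0.15 to 0.40). Ndufv2, its iron-sulfur partner, was at 133.6 and 144.2 CPM (0.11, 0.03 to 0.19). Ndufs1, the large iron-sulfur subunit of the N module, was at 30.9 and 33.5 CPM (0.11), with an interval of -0.06 to 0.29 that spans 0. In the Q module, Ndufs3 was at 105.2 and 99.7 CPM (-0.08, -0.17 to 0.02), and Ndufs8, which holds a pair of iron-sulfur clusters, at 89.4 and 91.6 CPM (0.04, -0.07 to 0.14), both with intervals that span 0. Ndufs7, which holds the iron-sulfur cluster nearest to ubiquinone, had an interval below 0, at 181.2 CPM in CD and 164.2 CPM in HFD (-0.14, -0.22 to -0.07).

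Among members that passed the filter, the accessory genes of complex I spanned the widest range of ratios. Ndufb4, a membrane-arm subunit, was at 31.7 CPM in CD and 49.8 CPM in HFD in macrophages, a log2 ratio of 0.65 (0.49 to 0.81). The files list a near copy, Ndufb4b, under its own symbol, at 3.34 and 5.98 CPM, and how reads were divided between them was not checked. Ndufa1, a small membrane-anchored subunit needed for assembly of the complex, was at 325.4 and 474.6 CPM (0.54, 0.49 to 0.59). Ndufb2 and Ndufb1 are small membrane-arm proteins. Ndufb2 was at 91.2 and 123.7 CPM (0.44, 0.34 to 0.53), and Ndufb1 at 224.9 and 301.9 CPM (0.42, 0.36 to 0.49). Ndufv3, Ndufa3, Ndufa12 and Ndufc1 were also called higher, with log2 ratios of 0.39, 0.38, 0.38 and 0.37. The opposite end held Ndufb10, another membrane-arm subunit, at 215.6 CPM in CD and 186.1 CPM in HFD (-0.21, -0.28 to -0.14). Ndufa6, whose promoter is shown above, was at 244.6 and 235.1 CPM (-0.06, -0.12 to 0.00). Subunits of the same arm of complex I thus lay at both ends of the range.

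Complex II, succinate dehydrogenase, links the chain to the citric acid cycle and is encoded by the nucleus alone. Its 4 genes summed to 443.8 CPM in CD and 458.7 CPM in HFD in macrophages, a log2 ratio of 0.05 (0.00 to 0.09). The genes split into a catalytic and a membrane pair. Sdha, the flavoprotein that oxidizes succinate, was at 69.8 and 62.2 CPM (-0.16, -0.28 to -0.05), and Sdhb, the iron-sulfur subunit, at 185.2 and 179.6 CPM (-0.04, -0.12 to 0.03). Sdhc and Sdhd, which anchor the complex in the membrane, were at 83.2 and 98.9 CPM (0.25, 0.15 to 0.35) and at 105.6 and 118 CPM (0.16, 0.07 to 0.25). Both anchor genes were thus above 0 with their intervals, while neither catalytic gene was.

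Complex III passes electrons from ubiquinol to cytochrome c. Its 8 genes summed to 2060 CPM in CD and 2342 CPM in HFD in macrophages, a log2 ratio of 0.18 (0.16 to 0.21), and 7 of the 8 were above 0. Uqcrc1 and Uqcrc2, the large core proteins, were at 129.4 and 155.5 CPM (0.26, 0.18 to 0.35) and at 97.6 and 111.1 CPM (0.19, 0.09 to 0.28). Uqcrfs1, the Rieske iron-sulfur protein that takes part in electron transfer, was at 144.1 and 147.5 CPM (0.03, -0.05 to 0.11). The small subunits went further apart. Uqcr10 was at 216.8 and 289.2 CPM (0.42, 0.35 to 0.48), and Uqcr11, shown above with a GABPA motif, at 373.4 and 467.3 CPM (0.32, 0.28 to 0.37). Uqcrh, the acidic hinge protein near the cytochrome c site, whose promoter holds the same motif, was at 446.6 CPM in CD and 395.2 CPM in HFD (-0.18, -0.22 to -0.13).

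Complex IV, cytochrome c oxidase, had the highest ratio of the complexes in macrophages, at 4657 CPM in CD and 5526 CPM in HFD, a log2 ratio of 0.25 (0.23 to 0.26). Of its 13 nuclear genes 10 passed the filter, and 9 of those were above 0. Ndufa4 was at 651.3 and 679.6 CPM (0.06, 0.02 to 0.10), and counting it with complex IV gave 0.23 there and 0.19 for complex I. Cox7c, a small membrane subunit, was at 345.3 CPM in CD and 534.3 CPM in HFD, a log2 ratio of 0.63 (0.58 to 0.68). Cox4i1, the ubiquitous form of a subunit that binds adenine nucleotides, was at 811.3 and 915.8 CPM (0.17, 0.14 to 0.21). Cox5a and Cox5b, subunits on the matrix side, were close to it, at 392.5 and 448.4 CPM (0.19, 0.14 to 0.24) and at 401.6 and 458 CPM (0.19, 0.14 to 0.24). Cox8a was the complex IV gene below 0, at 731.4 and 694.8 CPM (-0.07, -0.11 to -0.04). Cox6c and Cox7b lay just short of the threshold at 0.32, while Uqcr11 lay just past it.

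Several complex IV subunits have a ubiquitous gene and a relative used mainly in muscle or testis, and the ubiquitous ones carried nearly all counts here. Cox6a1 was at 486.4 CPM in CD and 646 CPM in HFD in macrophages (0.41, 0.37 to 0.45), whereas its muscle relative Cox6a2 gave 1 and 8 UMIs (2.51, -0.39 to 7.98). Cox6b1 was at 410.4 and 491.9 CPM (0.26, 0.22 to 0.31), and its testis relative Cox6b2 gave 17 and 30 UMIs (0.33, -0.58 to 1.28). Cox7a2 was at 291.8 and 354.1 CPM (0.28, 0.22 to 0.33). Its muscle relative Cox7a1 stood out among the low genes, with 49 UMIs in CD and 147 in HFD, or 3.27 and 6.98 CPM, a log2 ratio of 1.09 (0.62 to 1.59). In B cells Cox7a1 was also above 0, with 39 and 43 UMIs, or 0.989 and 1.62 CPM (0.71, 0.06 to 1.38). In T cells it gave 7 and 4 UMIs (-0.65, -2.87 to 1.33). In T cells Cox6a2 gave 0 UMIs in both libraries, which allows up to 0.537 CPM in CD and 0.599 CPM in HFD. Cox6a2, Cox6b2 and Cox7a1 are the members that did not pass the filter in any class.

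**Figure D2:**
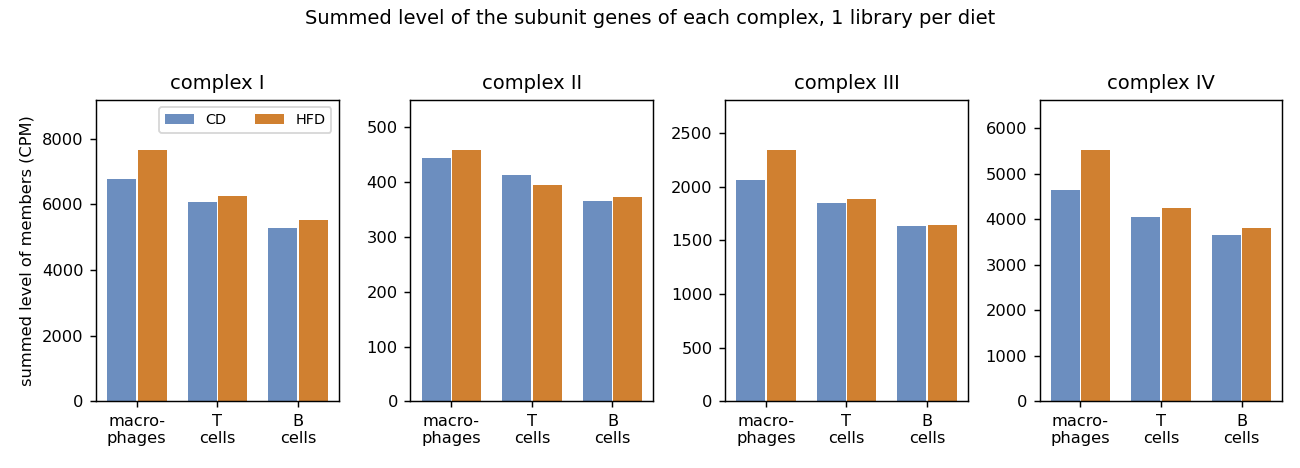
Summed CPM of the members of complexes I to IV in macrophages, T cells and B cells, CD and HFD side by side, 1 library each. Each panel has its own axis from 0; complex IV in macrophages goes from 4657 to 5526 CPM, while the bars of T and B cells differ little between diets.

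In T cells the members were nearly level between diets, at 12380 CPM in CD and 12800 CPM in HFD, a log2 ratio of 0.05 (0.03 to 0.06). The median of the 59 tested members was 0.05 (-0.02 over all 5753 genes tested), with 37 above 0 and 22 below. Of the members 2 were called higher, against 8.92% of all genes, and 0 lower, against 13.4%. Past a fold of 1.5 there was 1, against 2.52%. Complex I was at 0.05 (0.03 to 0.07), complex II at -0.06 (-0.15 to 0.02), complex III at 0.03 (-0.01 to 0.07) and complex IV at 0.07 (0.04 to 0.10). The 2 genes called higher were Ndufb4, at 25.6 CPM in CD and 40.2 CPM in HFD (0.65, 0.33 to 0.97), and Cox7c, at 344 and 436.8 CPM (0.34, 0.26 to 0.43). Ndufb1, Ndufb2 and Ndufa3 followed at 0.32, 0.29 and 0.28. The lowest were Ndufb8, a membrane-arm subunit, at 181.4 and 155.8 CPM (-0.22, -0.36 to -0.08), then Ndufc2, Ndufb10, Sdhd and Ndufs7 at -0.20, -0.19, -0.18 and -0.15. As in macrophages, the N module of complex I lay above the Q module. In T cells the N module was at 0.16 (0.10 to 0.21), with 8 of 8 genes above 0. The Q module was at -0.07 (-0.14 to 0.00). Of the core genes of complex I, 3 of 7 lay above 0 in T cells. The core genes Ndufs1, Ndufs3, Ndufs8, Ndufv1 and Ndufv2 were at 0.02, -0.03, -0.15, 0.04 and 0.12, each with an interval that spans 0.

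In B cells the summed level was 10928 CPM in CD and 11363 CPM in HFD, a log2 ratio of 0.06 (0.05 to 0.06). Of the 59 tested members 40 were above 0 and 19 below, with a median of 0.04 (0.00 over all 5307 genes tested). Of them 4 were called higher, against 6.14% of all genes, and 0 lower, against 5.11%. Past a fold of 1.5 there were 0, against 1.34%. Complexes I to IV were at 0.07, 0.03, 0.01 and 0.06. Within complex I the N module was at 0.07 (0.05 to 0.10) and the Q module at -0.02 (-0.05 to 0.01). Ndufb1 led, at 170.1 CPM in CD and 247.4 CPM in HFD (0.54, 0.49 to 0.59). Ndufb4 followed at 25.9 and 35.8 CPM (0.47, 0.34 to 0.59), then Cox7c at 309.5 and 414.2 CPM (0.42, 0.38 to 0.46) and Ndufa3, a membrane-arm subunit, at 244.7 and 327 CPM (0.42, 0.38 to 0.46). These 4 were the ones called higher, and Ndufv3 was next at 0.31. The lowest were Uqcrh, at 531.3 and 470.9 CPM (-0.17, -0.21 to -0.14), and Ndufs7, at 136.8 and 121.7 CPM (-0.17, -0.23 to -0.11), ahead of Ndufa6, Ndufa12 and Ndufb10 at -0.14, -0.13 and -0.13. Of the central subunits, Cox4i1 was at 585.4 and 572.3 CPM (-0.03) and Cox5a at 299.4 and 280.1 CPM (-0.10, -0.14 to -0.05) in B cells.

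Several genes held a like place in all 3 classes, although the classes of a diet come from 1 library and so are not independent. Ndufb4 had log2 ratios of 0.65, 0.65 and 0.47 in macrophages, T cells and B cells, Cox7c of 0.63, 0.34 and 0.42, and Ndufb1 of 0.42, 0.32 and 0.54. At the other end, Ndufb10 had -0.21, -0.19 and -0.13, Ndufs7 had -0.14, -0.15 and -0.17, and Uqcrh had -0.18, -0.12 and -0.17. Other genes were placed differently by class. Ndufa12, in the N module, was at 0.38 in macrophages, 0.05 in T cells and -0.13 in B cells. Cox6a1 was at 0.41, 0.13 and 0.05, and Uqcrb, which lies near the ubiquinone site, at 0.21, -0.14 and -0.07.

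The order of the classes within a diet depended on the scaling. As a share of all UMIs, macrophages had the highest summed level of members and B cells the lowest. The level in macrophages was 1.27 times that in B cells of the CD library (log2 0.35, 0.34 to 0.36) and 1.41 times in the HFD library (0.49, 0.48 to 0.50). T cells stood at 1.13 times B cells in both libraries. Cytosolic ribosomal proteins took 17.4% of UMIs in CD macrophages, 27.9% in CD T cells and 30.1% in CD B cells, and 17.5%, 29.5% and 28.7% in HFD. On CPM without ribosomal protein, mitochondrial and immunoglobulin genes, a scaling added after the data were seen for this comparison, the members were at 17396 CPM in macrophages, 18085 in T cells and 17078 in B cells of CD. In HFD they were at 19972, 19104 and 17485 CPM. On that scale T cells were thus highest in CD and macrophages in HFD, and the CD classes lay close together. On all UMIs, 52 of the 59 tested members in CD and 52 in HFD were higher in macrophages than in B cells. Uqcr11 was at 373.4 CPM in CD macrophages and 180.6 CPM in CD B cells, and at 467.3 and 197 CPM in HFD. Ndufa1 was at 325.4 and 163.1 CPM in CD, and at 474.6 and 200.3 CPM in HFD. At the other end, Ndufs8 was lower in macrophages than in B cells, by log2 ratios of -0.47 and -0.51, and so was Uqcrh, at -0.25 in both diets. For complex IV the macrophage over B-cell ratio was 0.35 in CD and 0.53 in HFD, and for complex II it was 0.28 and 0.30.

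The macrophage difference was examined within ranges of depth that were chosen after the data were seen, because the HFD macrophages carried more UMIs per barcode. Among macrophages with 1000 to 3000 UMIs (494 CD and 108 HFD barcodes), the members were at 14328 and 14210 CPM (log2 ratio -0.01, -0.07 to 0.04). In each deeper range the ratio was between 0.20 and 0.21, including 3000 to 6000 UMIs (802 and 217 barcodes), where levels were 13986 and 16083 CPM. Above 20000 UMIs they were 13873 and 15982 CPM. The shallowest macrophages of both libraries therefore did not show the difference, and the others showed it to a like extent. In B cells the ratio lay between 0.01 and 0.08 in every range. In T cells it went from -0.03 at 1000 to 3000 UMIs to 0.22 above 20000 UMIs, where only 10 and 11 barcodes remained.

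**Figure D3:**
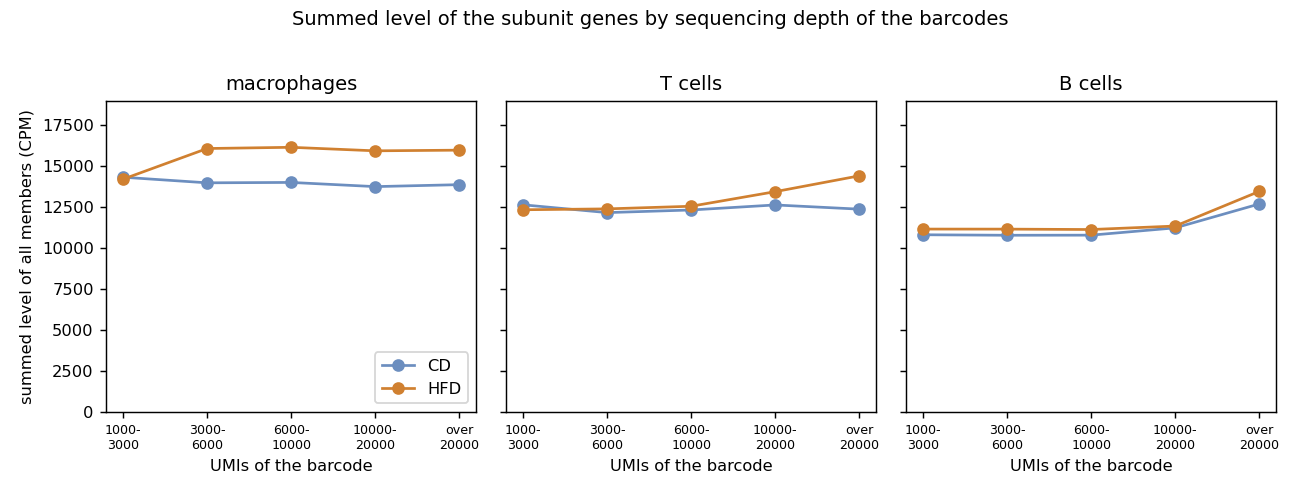
Summed CPM of all members (vertical axis, from 0) in barcodes grouped by their own UMI count (horizontal axis), for macrophages, T cells and B cells. In macrophages the HFD line lies above the CD line in every range but the first, where the values are 14210 and 14328 CPM.

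Cycling barcodes, with at least 2 UMIs of Mki67, Top2a, Birc5, Cdk1, Ccnb2 and Pclaf, made up 2.05% of CD and 14.0% of HFD macrophages. The rule takes no account of depth, and HFD macrophages carried more UMIs, so the shares are not directly comparable. Shallow cycling barcodes can also remain among the others. As summed CPM the 6 genes were at 40.8 in CD and 157.7 in HFD macrophages. In cycling macrophages the members were at 14319 CPM in CD (46 barcodes) and 17577 CPM in HFD (213 barcodes), a log2 ratio of 0.30 (0.26 to 0.33). In the remaining macrophages they were at 13910 and 15592 CPM (0.16, 0.16 to 0.17), so the difference was smaller but present without cycling barcodes. There, complexes I, III and IV were at 0.15, 0.16 and 0.21, and complex II at 0.01 (-0.04 to 0.06).

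RNA of other cells was unequal between the libraries. The 8 B-cell markers summed to 1215 CPM in CD macrophages and 317 CPM in HFD macrophages. Of these, 7 of the 7 that passed the filter there were called lower, against 12.9% of all genes. In T cells they summed to 2431 and 703.5 CPM. Barcodes with at least 2 UMIs of Cd79a, Cd79b and Ms4a1 made up 45.8% and 33.2% of macrophages and 51.4% and 33.7% of T cells. With the B-cell profile scaled to those markers and subtracted, the member ratio was 0.16 (0.15 to 0.17) in macrophages. In T cells it was then -0.01 (-0.02 to 0.01). Without barcodes that met the rule of another class or held those B-cell UMIs, the ratio was 0.17 (0.16 to 0.18) in macrophages. In T cells it was 0.01 (-0.01 to 0.03). The macrophage ratio was thus smaller and still above 0, while both T-cell intervals spanned 0. In B cells, the macrophage markers summed to 4281 CPM in CD and 2647 CPM in HFD, and neutrophil markers to 0.659 and 65.3 CPM. Without B-cell barcodes that also met the macrophage or T-cell rule the member ratio was 0.05, and the part of the neutrophil RNA was not tested.

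**Figure D4:**
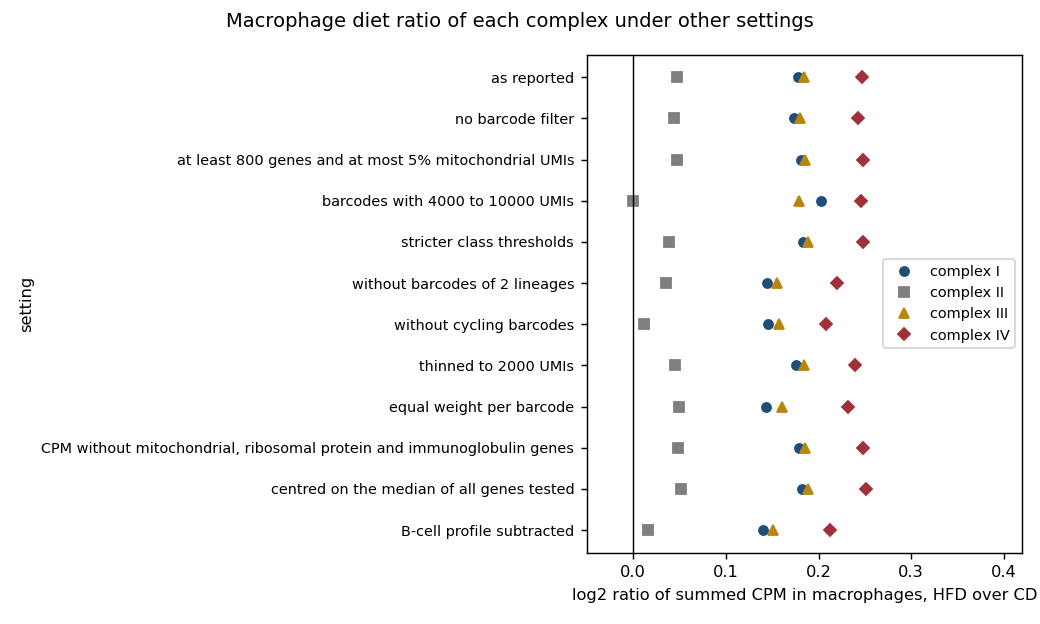
Log2 ratio of summed CPM in macrophages, HFD over CD, for the members of complexes I to IV (symbols) under the reported setting and each alternative (rows). Complex IV stays highest at 0.21 to 0.25, complexes I and III lie between 0.14 and 0.20, and complex II lies at 0.05 or below.

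Smaller groups of T and B cells, formed after the data were seen, had ratios from 0.03 to 0.12. T cells with Cd4 and no Cd8 UMIs (229 CD and 190 HFD barcodes) had members at 12282 and 12648 CPM (0.04, 0.01 to 0.07), and those with Cd8 and no Cd4 UMIs (234 and 260) at 11812 and 12416 CPM (0.07, 0.04 to 0.10). B cells whose receptors use the V genes known from phosphatidylcholine-binding antibodies, typical of peritoneal B1 cells (722 and 679), were at 11234 and 11490 CPM (0.03, 0.02 to 0.05). B cells with an IgD heavy-chain contig (142 and 83) were at 11052 and 12007 CPM (0.12, 0.07 to 0.17). Complex II in these groups had intervals that span 0.

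The mitochondrially encoded subunits belong to complexes I, III and IV, beside the members, and to ATP synthase, and their summed ratio in macrophages was smaller. Their 13 genes summed to 22624 CPM in CD and 24287 CPM in HFD, a log2 ratio of 0.10 (0.10 to 0.11). Of the 13, 11 were above 0 and 2 were called higher, against 10.7% of all genes. The leading genes were mt-Nd3 and mt-Atp8, small membrane proteins of complex I and ATP synthase. The former was at 190.7 and 408.1 CPM (1.10, 1.04 to 1.16) and the latter at 255.3 and 354.6 CPM (0.47, 0.42 to 0.53). In T cells they had ratios of 1.06 and 0.70 and in B cells of 0.92 and 0.45. By contrast mt-Cytb, the catalytic cytochrome of complex III, was at 2143 and 2044 CPM in macrophages (-0.07), and mt-Co1, which holds the oxygen site of complex IV, at 3747 and 3621 CPM (-0.05).

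Nuclear genes of ATP synthase, which uses the proton gradient, had ratios of a like size. The 17 found in the files summed to 6311 and 7446 CPM in macrophages (0.24, 0.23 to 0.25). Of the 17, 16 were above 0 and 3 were called higher, against 10.7% of all genes. Those 3 were Atp5k, Atp5mpl and Atp5md, small membrane-sector proteins, at 0.69, 0.53 and 0.49. The 13 citric acid cycle genes were at 790.5 and 901.5 CPM (0.19, 0.16 to 0.22), with Idh3g, Mdh2 and Idh3a at 0.37, 0.30 and 0.27. The 18 genes of mitochondrial protein import were at 0.12, with 11 above 0, and the 75 mitochondrial ribosomal proteins at 0.06, with 45 of 67 tested above 0. Cytosolic ribosomal proteins, a group outside mitochondria, were at 0.01 over 79 genes. Within them Rps29, Rpl22l1 and Rps28 were at 0.83, 0.62 and 0.60.

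Genes that build or regulate the chain had summed ratios at or below 0 in macrophages. The 47 assembly factors summed to 1680 CPM in CD and 1656 CPM in HFD (-0.02, -0.04 to 0.00), with 7 of 23 tested above 0. Surf1, which assists complex IV assembly, was at 36 and 27 CPM (-0.42), Sdhaf4, which assists complex II, at 46.3 and 35.1 CPM (-0.40), and Pet100, another complex IV factor, at 75.9 and 100.7 CPM (0.41). The 12 regulators of mitochondrial biogenesis summed to 201.2 and 186.8 CPM (-0.11, -0.18 to -0.04), and 2 of them passed the filter. Nrf1, which encodes the factor whose motif is shown above, was at 25 and 22.1 CPM (-0.17, -0.37 to 0.02), and Yy1 at 64 and 62.2 CPM (-0.04, -0.16 to 0.08). Subunit and cytochrome c genes outside the symbol pattern summed to 828.1 and 799.4 CPM (-0.05, -0.08 to -0.02), although 3 of the 4 tested were above 0. Among them Cox7a2l, which links complexes III and IV, was at 338.8 and 283.6 CPM (-0.26), and Cyc1 and Cycs, cytochromes c1 and c, were at 0.09 and 0.08.

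**Figure D5:**
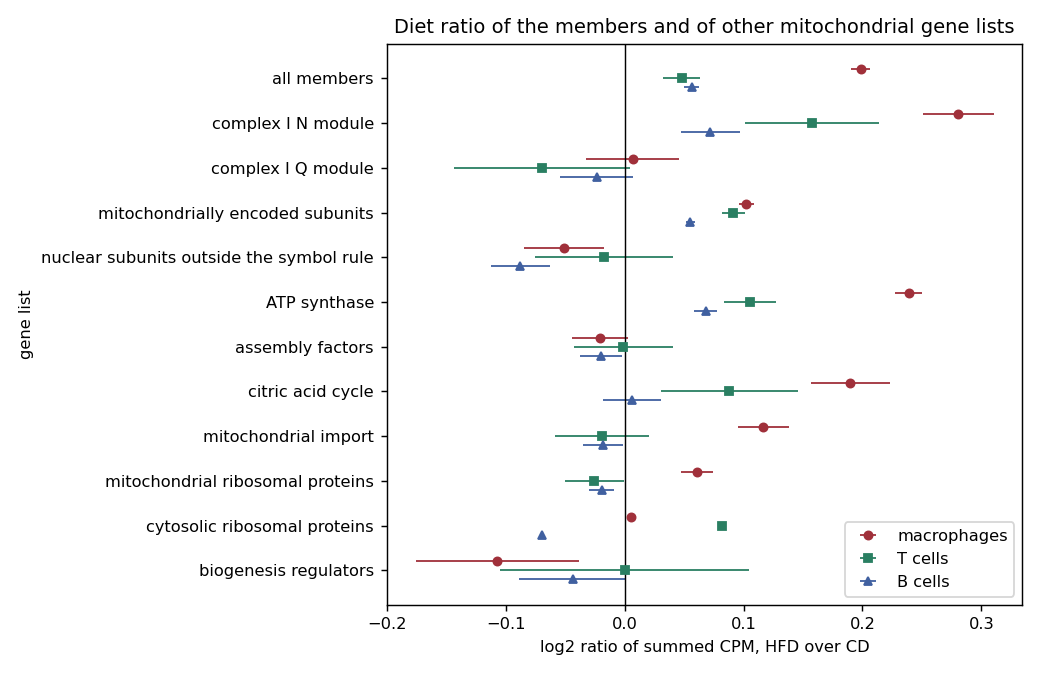
Log2 ratio of summed CPM, HFD over CD (horizontal axis), of the members and of other mitochondrial and ribosomal gene lists (vertical axis) in macrophages, T cells and B cells, with 95% counting intervals. In macrophages the members, ATP synthase and the citric acid cycle lie at 0.19 to 0.24, while assembly factors lie at -0.02.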

How the data were processed

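Droplet single-cell expression and B-cell receptor libraries of sorted peritoneal leukocytes, 1 of each per diet, were analysed. The deposited matrices give unnormalized UMI counts of each gene in each barcode. The deposited receptor tables list UMI and read counts by contig with text annotation. Only barcodes, chain types, productive status and gene calls were used from them. Per the file headers the matrices were written by Cell Ranger 8.0.1, while Cell Ranger 6.0.1, Seurat 4.3.0 and mm39 are listed in the submitters' processing notes, and cell-calling settings are not given in the sources used here. The promoter windows are of another build, GRCm38.p6, and serve only as sequence.

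Barcodes under 300 genes or over 10% mitochondrial UMIs were dropped. Macrophages and T cells were barcodes without a receptor contig, and 99 CD and 49 HFD barcodes meet both rules and count in both classes. No doublet caller was used, so barcodes of mixed content remain. UMIs were summed per class and library and divided by the class total (CPM). Ratios carry exact conditional Poisson intervals. The interval code was checked on counts simulated from the same Poisson model, which holds no spread between barcodes. Calls are ratios of at least 25% in either direction in genes with at least 50 UMIs over both libraries and a mean of 20 CPM. No test was possible, and barcodes were not treated as replicates.

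The members and lists were chosen with earlier results of these data known. The text names the 5 highest and 5 lowest members per class, the core and catalytic subunits, isoform pairs, up to 3 genes per other list, and a few further members chosen after their values were seen. Values of 1 member and 1 marker are not reported singly here, and both stay in the sums and counts. Alternatives changed the barcode filter, depth, weighting, scaling, class thresholds, mixed and cycling barcodes, B-cell RNA, low-value filter, fold and place of Ndufa4. Python 3.11.15, numpy 2.4.6, scipy 1.17.1, pandas 2.3.3 and matplotlib 3.10.9 were used.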

Additional observations from a re-analysis of the deposited data

How the results depend on the processing

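Under the alternatives of this section the summed ratio and the median of members stayed above 0 in macrophages (11 settings for the sum) and B cells (10, with no subtraction of B-cell RNA). The ranges of depth in the report are apart from these, and in the shallowest the macrophage ratio was -0.01. In T cells the summed ratio reached -0.00533 with the B-cell profile subtracted, and was 0.00900 without barcodes of 2 lineages and 0.00941 with equal weight per barcode. It was 0.0247 in barcodes with 4000 to 10000 UMIs, 0.0262 without cycling barcodes, 0.0269 after thinning to 2000 UMIs, 0.0791 on CPM without mitochondrial, ribosomal protein and immunoglobulin genes, and 0.0665 when centred on all genes tested. In macrophages the summed ratio was 0.21 in barcodes with 4000 to 10000 UMIs, 0.17 without barcodes of 2 lineages, 0.16 without cycling barcodes, 0.17 with equal weight and 0.16 with the B-cell profile subtracted. In B cells it was 0.0448 in that depth range, 0.0668 with stricter thresholds, 0.0465 without cycling barcodes and 0.0339 on the narrower CPM. Members called lower numbered 1 in macrophages in that depth range and after thinning. In T cells they numbered 2 in that range, 1 without barcodes of 2 lineages and 1 with no filter on low values. Members called higher in T cells numbered 4 with stricter thresholds and after thinning, and 1 without cycling barcodes, with the B-cell profile subtracted and at a mean of 100 CPM. A fold of 1.5 left 2 in macrophages, 1 in T cells and 0 in B cells, against 3.09%, 2.52% and 1.34% of all genes. For the counts in the other settings no share of all genes stands beside them, so they describe the members only. Signs changed for genes of low and of high count. Among the low ones, Cox6b2 in macrophages was -1.18 in the depth range and -0.51 without barcodes of 2 lineages. Cox7a1 in T cells was 0.0113 in the depth range. Among well-counted genes with ratios near 0, Ndufa4 in B cells ranged from -0.02 to 0.02. Ndufb9 in macrophages ranged from -0.03 to 0.06. Of the 59 members past the low filter, 47 kept their sign in every setting in macrophages, 28 in T cells and 47 in B cells. All 12, 2 and 4 called members kept theirs, although not always the call. Complex III turned sign in some settings, reaching -0.01 in B cells and -0.02 in T cells. Complex I in T cells turned to -0.01 with the B-cell profile subtracted. Complex II also turned sign, reaching 0.02 in T cells and -0.000165 in macrophages. The median of members in T cells was -0.0049 with the B-cell profile subtracted and -0.0025 with equal weight per barcode. On the narrower CPM, macrophages over B cells were 0.0266 in CD and 0.192 in HFD, T cells over B cells 0.0826 and 0.128, and macrophages over T cells -0.0560 and 0.0641, a scaling added for these after the data were seen. Counts limit the 3 low members and the 2 cycling groups, and what differs between mice is in none of these values. The cause of each difference between settings was not tested.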
